A study of Mus musculus with 4 samples.

Results

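Ptprt and its 3 paralogues Ptprk, Ptprm and Ptpru were described in mouse embryonic cells that carry 1 or no intact Kmt2d allele. They are 4 of the 32285 genes counted in each library. Ptprt was chosen by its lower level in conditional knockout (cKO) heart field cells of these same libraries, and the 3 others were chosen as the remaining genes of its family, not by a measured value. The lower Ptprt level in the heart field is therefore a description here and carries no test.

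These genes encode the R2B receptor-type protein tyrosine phosphatases, a family that joins an adhesion-like extracellular part to intracellular phosphatase domains. Ptprt, Ptprk and Ptprm remove phosphate from tyrosines and bind the same protein on a neighbouring cell, close to cadherins and catenins at cell contacts, while Ptpru is described as lacking catalytic activity. Proteins of this family are cut by furin during maturation and can be shed by Adam10 and then cleaved within the membrane by γ-secretase. Ptprt is best known from the nervous system and as a gene mutated in colorectal cancer, with Stat3 and paxillin as substrates. Ptprk acts on the EGF receptor, Ptprm is known for its abundance in endothelium, and Ptpru is known from epithelial cell junctions.

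The cells came from the pharyngeal region and heart of E9.5 embryos, labelled as outbred SwissWebster although the study's methods describe a mixed C57BL/6 and Swiss Webster background, sorted for GFP that marks the Tbx1Cre lineage, and were profiled by droplet single-cell RNA-seq. The conditional heterozygotes (cHet) were Tbx1Cre/+; Kmt2d F/+; GFP F/+ and the cKO were Tbx1Cre/+; Kmt2d F/F; GFP F/+. All embryos carried Cre knocked into Tbx1, which leaves 1 working Tbx1 allele, and the controls too had lost 1 Kmt2d allele in the lineage. Each genotype had 2 libraries, with 4 embryos pooled per library in replicate 1 and 3 in replicate 2. The pools were not matched in the somite counts that the study lists. The lowest count was higher in the cKO pool of each replicate, and the highest count was higher in cKO only in replicate 2. The part of stage in the differences below was not tested. Embryos within a pool cannot be told apart, so n is 2 libraries per genotype and p-values measure the spread between pools. With so few libraries edgeR takes this spread largely from all genes of a group. How far it does so differs between groups. A gene's standard error and p-value can therefore understate its own spread between replicates. The replicates were made with different versions of the 10x kit, so that the replicate number marks a batch and was a term in the main fits. With 1 library left out, the 3 that remain leave no residual degrees of freedom for that term, so those fits had none and compare libraries across kits.

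Between 5869 and 11938 cells per library were kept (33448 in all), with median depths of 17240.5 to 22972 UMIs per cell, where a UMI is a count of 1 captured RNA molecule. Levels are given as CPM, the gene's UMIs divided by all UMIs of the same group of cells in the same library, on the usual scale of that unit. The library cHet replicate 1 stood apart, with 37093 barcodes against 9307 to 16775 in the others and 60.0% of its UMIs in kept cells against 86.1% to 91.6%. In the others the barcodes equal the total cells that the study lists. For cHet replicate 1 the study lists far fewer cells than the matrix has barcodes. Kept libraries of replicate 1 shared 12 barcodes and those of replicate 2 shared 41. Leaving these cells out ended 3 of the calls below, those of Ptprk, Ptprf and Jup in Pcdh9 Galntl6 cells. Their log2 differences were 0.19, −0.23 and −0.68 both with and without these cells. Kmt2d itself stood at 17.4 CPM in cHet and 15.2 in cKO of replicate 1, and at 23.9 and 21.0 in replicate 2. Since reads were primed from the 3′ end and the floxed exons' positions are not given in the sources used here, these levels are no check of the deletion.

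Clusters were named from marker genes, and a name such as "endothelium-like" means only that these markers led. The 19 groups with at least 20 cells in every library were 13 named types and 6 unnamed clusters, the latter called by their 2 leading genes. The heart field is the sum of the anterior second heart field-like (aSHF-like) and cardiac muscle-like cells. The aSHF-like cluster was named from 4 of the 10 markers on its list, Mef2c, Bmp4, Hand2 and Rgs5. Of the cranial mesenchyme list 3 markers met the limits used for naming, and its Alx1 was among the cluster's leading genes. The cranial mesenchyme list summed higher than the aSHF list in every library of this cluster, at 993 to 1293 CPM against 687 to 1178. The cardiac muscle-like cluster had all 8 markers on its list, from Tnnt2 to Nppa. The endoderm-like cluster, led by Vgll2 and Foxe1, was named from 5 markers, but its leading genes also held the epithelial markers Epcam and Cldn6, and no genotype difference is drawn from it beyond its place in the counts over all groups.

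Ptprt lies on the minus strand of chromosome 2 at 161521990 to 162661147 in GRCm38, a span of 1139.158 kb. Its longest coding transcript has 31 exons. Ptprk spans 522.578 kb on the plus strand of chromosome 10 (28074820 to 28597397), and Ptprm spans 687.511 kb on the minus strand of chromosome 17 (66666947 to 67354457). Ptpru is the compact member, at 69.832 kb on the minus strand of chromosome 4 (131768457 to 131838288). The coding lengths of all 4 are alike, at 4365 bases for Ptprt, 4413 for Ptprk, 4458 for Ptprm and 4338 for Ptpru. The antisense gene Ptprtos, which is counted separately, had 5 UMIs over the 19 groups against 11390 for Ptprt.

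Ptprt was highest in cells of very different kinds. Its mean level over the 4 libraries was 54.1 CPM ± 40.4 (SD, n = 4) in cardiac muscle-like cells, 48.3 ± 19.9 in endoderm-like cells, 39.8 ± 11.0 in sensory neuron-like cells, 35.1 ± 7.35 in cranial mesenchyme-like cells and 25.7 ± 12.7 in otic vesicle-like cells. The aSHF-like cells stood in the middle of the order, at 14.8 ± 3.96 CPM. The lowest levels were in endothelium-like cells (2.89 ± 1.81) and in posterior second heart field-like (pSHF-like) cells (2.45 ± 2.15), where a library held between 8 and 23 Ptprt UMIs. In this order the ranges of every neighbouring pair of groups overlapped, so that no single step exceeded the spread over libraries.

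**Figure D1:**
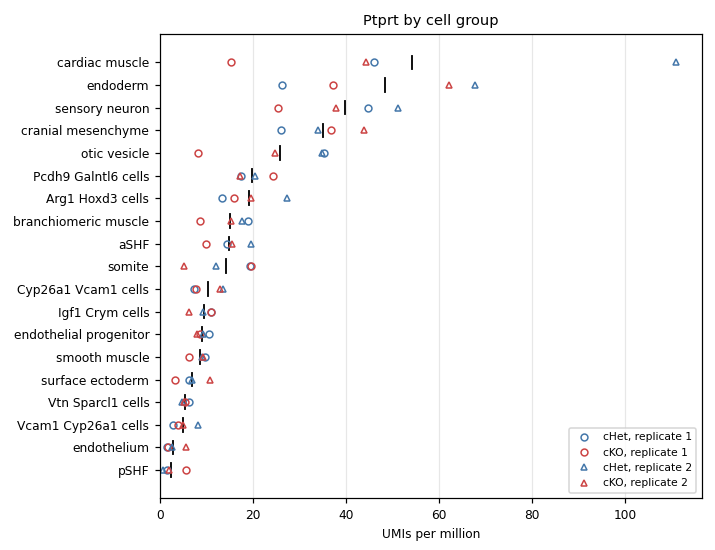
Level of Ptprt (CPM) in each of the 19 cell groups, ordered by mean, with 1 open symbol per library (colour for genotype, circle for replicate 1 and triangle for replicate 2) and a bar at the mean. Names on the axis leave out "-like", and cardiac muscle has the highest mean, 54.1 CPM, with libraries from 15.3 to 111, while pSHF has the lowest, 2.45.

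Within a group the Ptprt molecules were unevenly held. In cardiac muscle-like cells at least 1 Ptprt UMI was found in 32 of 133 cells (24.1%, exact 95% interval 17.1 to 32.2) of cHet replicate 1 and in 6 of 34 (17.6%, 6.76 to 34.5) of cKO replicate 1. In replicate 2 it was found in 100 of 218 cHet cells (45.9%, 39.1 to 52.7) and 52 of 244 cKO cells (21.3%, 16.3 to 27.0). The interval covers counting error only. In pSHF-like cells, which served as the low reference, the share was 1.46% to 6.21%, at median depths of 18145 to 23938 UMIs against 18681 to 27015 in cardiac muscle-like cells. Pooled barcodes with fewer than 1000 UMIs had 5.68 to 11.96 CPM of Ptprt per library, above the pSHF-like libraries (0.74 to 5.59). What these barcodes hold was not tested. A single cardiac muscle-like cell held up to 77 Ptprt UMIs, and in the 3 libraries with more than 10 such cells the 10 with most Ptprt held 41.3% to 69.7% of the group's Ptprt UMIs.

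The paralogues were each highest elsewhere. Ptprk was highest in the unnamed Arg1 Hoxd3 cells (636 CPM ± 106, SD, n = 4), whose 4 libraries, at 539 to 755 CPM, all lay above the highest otic vesicle-like library (446). Below them Ptprk declined without a gap, from 390 ± 60.2 in otic vesicle-like cells through 330 ± 67.6 in aSHF-like and 140 ± 9.68 in cardiac muscle-like cells to 123 ± 21.0 in cranial mesenchyme-like cells. Cranial mesenchyme-like cells, among the higher groups for Ptprt, were thus the lowest for Ptprk, while cardiac muscle-like cells were first for Ptprt and among the lowest 3 for Ptprk.

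Ptprm was highest in the vascular cells. Its level was 936 and 874 CPM in cHet and cKO endothelium-like cells of replicate 1, and 1492 and 1516 in those of replicate 2, a mean of 1205 ± 347 (SD, n = 4). Endothelial progenitor-like cells followed at 646 ± 188 CPM, with no overlap in either direction of the order, since the next group, endoderm-like cells, had 107 ± 42.1. After thinning every cell to 5000 UMIs, 91.5% to 96.6% of endothelium-like cells still held a Ptprm UMI, against 99.1% to 100% before, while the thinned share in aSHF-like cells was 5.94% to 7.36%. The aSHF-like and pSHF-like cells had 15.8 ± 1.35 and 12.6 ± 0.84 CPM.

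Ptpru was low in every group, and highest in epithelial ones. It reached 23.8 CPM ± 6.23 (SD, n = 4) in otic vesicle-like cells, 12.7 ± 4.95 in surface ectoderm-like cells and 11.96 ± 2.59 in endoderm-like cells, and no other group passed 7.38. The step from endoderm-like cells to the next group, Arg1 Hoxd3 cells, was without overlap. In cardiac muscle-like and smooth muscle-like cells a library held no more than 8 Ptpru UMIs, and 0 in smooth muscle-like cells of cHet replicate 1.

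**Figure D2:**
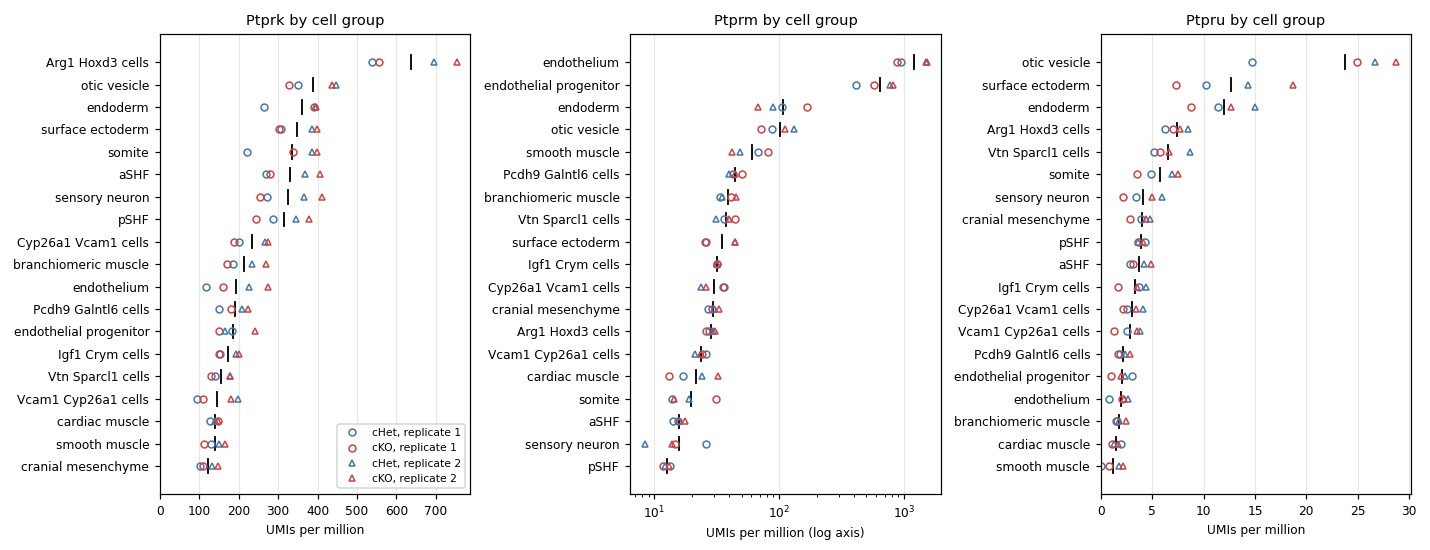
Levels (CPM) of Ptprk, Ptprm (log axis) and Ptpru, 1 panel per gene, in the 19 cell groups ordered by mean within each panel, with 1 open symbol per library (colour for genotype, circle for replicate 1 and triangle for replicate 2) and a bar at the mean. Names on the axis leave out "-like", and the highest means are those of Arg1 Hoxd3 cells for Ptprk (636), endothelium for Ptprm (1205) and otic vesicle for Ptpru (23.8).

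Over the 13 named types, the genes whose mean log2(CPM + 1) was most like that of Ptprt were Ap1b1, a clathrin adaptor subunit (Pearson r = 0.82), Minpp1, an inositol polyphosphate phosphatase (0.76), Rprm (0.74) and Micu3, a regulator of mitochondrial calcium uptake (0.73). For Ptprm they were the transcription factor gene Ets2 (0.97), Pomp (0.94), Gimap9 (0.94), Snx9 (0.94) and Arhgap18 (0.93). For Ptpru they were Prrg4 (0.95), Ccdc148 (0.94), Hook2 (0.93), Emid1 (0.93) and Lnx1 (0.92), and for Ptprk Ccdc77 (0.88), Lin52 (0.87), Polr3b (0.87), Rnaseh2a (0.87) and E330009J07Rik (0.86). Among the members, Ptprk and Ptpru had r = 0.74, and Ptprt had −0.05 with Ptprk, −0.30 with Ptprm and 0.22 with Ptpru. These values describe 13 points that come from the same 4 libraries and differ in depth.

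In the heart field, the contrast that chose it, Ptprt stood at 20.05 CPM (288 UMIs) in cHet and 10.3 (119 UMIs) in cKO of replicate 1. In replicate 2 it stood at 47.2 CPM (841 UMIs) in cHet and 23.1 (413 UMIs) in cKO. The cKO level was thus 0.514 of the cHet level in replicate 1 and 0.490 in replicate 2, with a fitted log2 difference of −0.99. The groups overlapped when the replicates were pooled, because cKO replicate 2 lay above cHet replicate 1. The fitted difference within the pairs was −0.96 in replicate 1 and −0.9998 in replicate 2. In fits with no replicate term, which compare libraries across kits, it was −1.36 without cHet replicate 1, −0.63 without cKO replicate 1, −0.47 without cHet replicate 2 and −1.49 without cKO replicate 2.

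The lower level was mostly in the cardiac muscle-like cells, which contract the early heart tube. There Ptprt was 46.0 CPM in cHet and 15.3 in cKO of replicate 1, and 111 and 44.2 in replicate 2. The cKO value of replicate 1 rests on 14 UMIs in 34 cells. The cKO to cHet ratio was 0.332 in replicate 1 and 0.398 in replicate 2, and the log2 difference −1.32, or −1.69, −0.88, −0.68 and −2.12 without these libraries in the same order and without the replicate term, against −1.50 and −1.26 within the pairs. The aSHF-like cells are named after progenitors that add to the outflow tract and right ventricle. In them Ptprt was 14.3 CPM in cHet and 9.88 in cKO of replicate 1, and 19.5 and 15.4 in replicate 2. Here the ratios were 0.689 and 0.788, the log2 difference was −0.42, and the libraries of the genotypes overlapped.

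After thinning to 5000 UMIs, the share of cardiac muscle-like cells with a Ptprt UMI was 9.02% in cHet and 14.7% in cKO of replicate 1, and 28.0% and 10.7% in replicate 2. In replicate 1 the share, from 12 and 5 cells, goes against the CPM, and no order is read from it.

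Cardiac muscle-like cells made up less of the heart field in the cKO library of each replicate. They were 19.3% of heart field cells in cHet and 7.47% in cKO of replicate 1, and 28.4% and 25.3% in replicate 2. They held 41.3% of the heart field's Ptprt UMIs in cHet and 11.8% in cKO of replicate 1, and 71.1% and 51.3% in replicate 2. With every library set to the same 20.1% of cardiac muscle-like cells, an arithmetic reweighting chosen after seeing the data, Ptprt would stand at 20.7 and 11.0 CPM in replicate 1 and at 37.9 and 21.2 in replicate 2. The ratios were then 0.530 and 0.559.

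**Figure D3:**
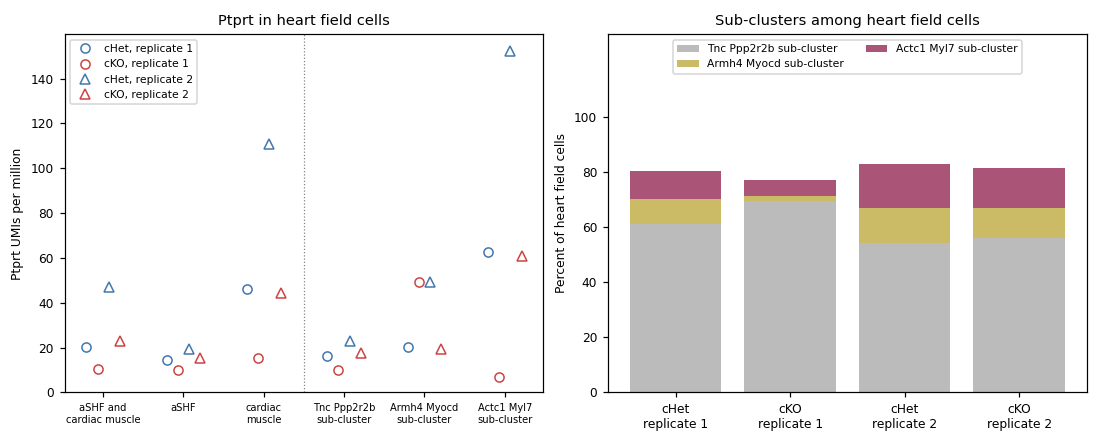
Left, Ptprt level (CPM) in the heart field, in its aSHF and cardiac muscle cells and in 3 of the finer clusters, 1 open symbol per library, and right, the percent of each library's heart field cells in those 3 clusters, as stacked bars that leave out the rest of the cells. Names leave out "-like", and in cardiac muscle the cKO libraries lie at 15.3 and 44.2 CPM and the cHet libraries at 46.0 and 111.

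Ptprt was also followed in 3 of the finer clusters of these cells, and its highest levels were in the one with contractile genes in the lead, except in cKO replicate 1. Cells led by Actc1 and Myl7, genes of the contractile apparatus, had 62.6 CPM in cHet and 6.82 in cKO of replicate 1, and 152 and 61.0 in replicate 2. The value of 6.82 rests on 5 UMIs in 26 cells. Cells led by Tnc and Ppp2r2b had 16.3 and 10.1, and 23.0 and 17.5. In cells led by Armh4 and Myocd the replicates disagreed, at 20.2 and 49.0 in replicate 1, the latter from 9 UMIs in 8 cells, and 49.4 and 19.5 in replicate 2.

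Marker levels also differed between the genotypes, not all in the direction of Ptprt. In the heart field as a whole all 8 cardiac muscle markers were lower in cKO in both replicates, and their summed level was 4289 and 2492 CPM in replicate 1 and 11052 and 10011 in replicate 2. Within the cardiac muscle-like cells the same markers summed to 22327 and 28076 CPM in replicate 1 and 35171 and 35904 in replicate 2. Of these 8, 3 were higher and 1 lower in cKO in both replicates. There the epithelium list was lower in cKO, at 301 and 194 CPM and at 255 and 207, with 5 of 6 markers lower in both replicates. In the heart field the 3 proepicardium markers were higher in cKO in both replicates, at 36.4 and 53.6 CPM and at 54.0 and 77.1. The pSHF list, of a type with the lowest Ptprt, was 74.7 and 122 CPM and then 101.02 and 110.2, with 5 of 7 markers higher in both replicates. Of the aSHF list 6 of 10 markers were lower in both, while its sum was 977 and 742 CPM and then 1630 and 1669. The cranial mesenchyme list, of a type with high Ptprt, was 871 and 1001 CPM and then 967 and 1028, also with 5 of 7 markers higher in both and none lower. The part of these in the Ptprt values was not tested.

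None of the 3 paralogues passed the test in the heart field. Ptprk was 243 CPM in cHet and 268 in cKO of replicate 1, and 299 and 336 in replicate 2, a log2 difference of 0.16 ± 0.06 (SE, edgeR quasi-likelihood test, Benjamini-Hochberg adjusted p = 0.836). Ptprm was 14.8 and 15.3, then 18.4 and 21.5, a log2 difference of 0.16 ± 0.11 (edgeR, adjusted p = 0.996). Ptpru was 2.65 and 2.95, then 3.31 and 4.03, a log2 difference of 0.24 ± 0.23 (edgeR, adjusted p = 0.996). All 3 were higher in cKO in both replicates, as were 25.7% of all genes tested there, while 25.7% were lower in both. Of the 14577 genes in this comparison 0% passed by edgeR (0 genes, against 718 with p under 0.05 before adjustment) and 0 passed by DESeq2 (127 before adjustment).

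The wider family of 23 receptor-type tyrosine phosphatase genes likewise had no gene past the threshold in the heart field, where 0% of all genes were called. Of its 14 genes that passed the filter, Ptprt included but not tested, 5 were lower and 4 higher in both replicates, and the median log2 difference was −0.04 against 0.00 over all genes. Besides Ptprk, the genes named by their mean CPM were Ptprd, Ptprg and Ptprf. Ptprd, a synaptic adhesion receptor, was 385 and 386 CPM in replicate 1 and 477 and 493 in replicate 2. Ptprg, of the R5 group, was 166 and 158 and then 194 and 192, and Ptprf, a receptor of the LAR group, 70.8 and 67.4 and then 135 and 130. Ptpre, of the R4 group, had the next lowest log2 difference after Ptprt, −0.66 ± 0.16 (edgeR, adjusted p = 0.535), from 8.84 and 4.77 CPM in replicate 1 and 11.7 and 8.06 in replicate 2, and was named after its values were seen.

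**Figure D4:**
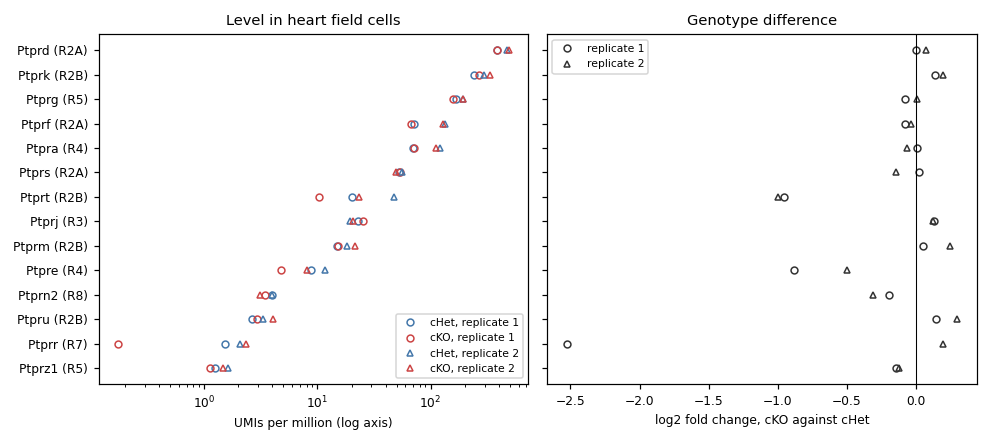
Left, level (CPM, log axis) of the receptor-type tyrosine phosphatase genes that passed the filter in the heart field, 1 open symbol per library, and right, the log2 fold change between cKO and cHet in each replicate. Levels are for reading along a row, and Ptprt lies at −0.96 and −0.9998, Ptpre at −0.88 and −0.50, and Ptprr at −2.53 and 0.19, the former from 22 and 2 UMIs.

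As with all genes tested in the heart field (0% called), no partner of the R2B proteins passed there. Of 21 cadherins, catenins, substrates, Src family kinases and cleavage enzymes, 19 were tested, with 10 lower and 4 higher in both replicates, where 25.7% of all genes were lower and 25.7% higher, and a median log2 difference of −0.03. The genes named by their mean CPM were 2 cadherins and 2 catenins. Cdh11 was 256 and 253 CPM in replicate 1 and 363 and 333 in replicate 2, and Cdh2 255 and 230, then 339 and 383. Ctnna1, α-catenin, was 173 and 169, then 288 and 294, and Ctnnb1, β-catenin, 186 and 181, then 210 and 205. The substrate Stat3 had a log2 difference of −0.15 ± 0.16 and Pxn, paxillin, one of 0.05 ± 0.20.

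Outside the heart field the members were tested in every group in which they passed the filter on low counts. Over all groups 73 of 76 pairs of a member and a group passed it, with Ptpru in 16 of 19 groups and the others in all 19, and 2 of these pairs, Ptprt with aSHF-like and with cardiac muscle-like cells, are the rule's own and were not tested. Of the others 3 passed the test, where 0.637% of all gene and group pairs did. Ptprt was higher in cKO in both replicates in 3 groups and lower in 7, of which 2 are the rule's own, Ptprk in 8 and 1, Ptprm in 7 and 1, and Ptpru in 3 and 6. The endoderm-like cluster is among the 8 groups of Ptprk and the 6 of Ptpru. Over all genes and groups 26% were higher and 25.4% lower in both replicates.

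Ptprt was lower in cKO otic vesicle-like cells, the epithelium of the future inner ear. It stood at 35.3 CPM (72 UMIs) in cHet and 8.16 (19 UMIs) in cKO of replicate 1, and at 34.8 (111 UMIs) and 24.7 (127 UMIs) in replicate 2. The log2 difference was −1.02 ± 0.21 (SE, edgeR quasi-likelihood test, adjusted p = 0.000459), where 0.985% of genes in this group were called. The size differed between replicates, at −2.04 in replicate 1 and −0.50 in replicate 2. Ptprt UMIs were found in 25% and 14.6% of cells in replicate 1 and in 30.3% and 24.1% in replicate 2, and after thinning in 13.1% and 2.25%, and 13.6% and 8.52%. The 10 cells with most Ptprt held 77.8% of its UMIs in cHet and 84.2% in cKO of replicate 1, and 59.5% and 40.2% in replicate 2.

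Ptprt was higher in cKO cranial mesenchyme-like cells. It stood at 26.1 CPM (211 UMIs) in cHet and 36.7 (586 UMIs) in cKO of replicate 1, and at 33.9 (533 UMIs) and 43.9 (814 UMIs) in replicate 2. The log2 difference was 0.44 ± 0.09 (edgeR, adjusted p = 0.000378), 0.50 in replicate 1 and 0.40 in replicate 2, where 1.31% of genes in this group were called. The share of cells with a Ptprt UMI was 26.6% and 32.7% in replicate 1 and 29.9% and 33.3% in replicate 2.

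Ptprk was higher in the unnamed Pcdh9 Galntl6 cells. It was 150 and 179 CPM in replicate 1 and 208 and 223 in replicate 2, a log2 difference of 0.19 ± 0.06 (edgeR, adjusted p = 0.0451), in a group where 3.91% of genes were called. Without the barcodes that libraries share its adjusted p was 0.0987 by the same edgeR test, with a range of 0.0242 to 1.00 over all the alternatives.

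These 3 calls depended on the test and its settings. DESeq2 gave an adjusted p of 1.00 for each, at log2 differences of −1.22, 0.45 and 0.19, and none was called by edgeR without the replicate term, at −1.12, 0.45 and 0.19. With cells thinned to 5000 UMIs both Ptprt calls were lost (edgeR adjusted p = 0.825 in otic vesicle-like and 0.265 in cranial mesenchyme-like cells), with log2 differences of −0.91 and 0.53. Ptprk lost its call without TMM scaling (edgeR adjusted p = 0.165, log2 difference 0.18) and without the highest 10% of doublet scores (0.0869, 0.19). None was called either with any 1 of cHet replicate 1, cKO replicate 1, cHet replicate 2 and cKO replicate 2 left out, but as these fits also had no replicate term the loss cannot be put down to a library. The log2 difference in otic vesicle-like cells was −0.91, −0.68, −1.31 and −1.91 without these libraries in turn, that in cranial mesenchyme-like cells 0.44, 0.41, 0.47 and 0.49, and that of Ptprk 0.14, 0.17, 0.24 and 0.20.

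Other values moved in the same groups. In otic vesicle-like cells the summed sensory neuron markers were 31.9 and 21.9 CPM in replicate 1 and 59.5 and 50.5 in replicate 2, and the endothelial progenitor markers 39.7 and 6.44, and 10.3 and 6.03, while the otic vesicle list itself was 399 and 306, and 499 and 550. In cranial mesenchyme-like cells the group's own list was 1460 and 1553 CPM in replicate 1 and 2071 and 2171 in replicate 2, with 5 of 7 markers higher in both and 1 lower. Of other lists there, 5 of 7 pSHF markers were higher in both and 0 lower. Their sum was low throughout, at 2.35 and 3.82 CPM and then 5.15 and 6.36. Lower in both were 6 of 10 aSHF markers (1 higher) and 3 of 4 endothelial progenitor markers (0 higher). The sums did not follow these counts in replicate 2. The aSHF list was 116 and 100 CPM and then 136 and 140, and the endothelial progenitor list 119.8 and 113.5 and then 164.7 and 165.0. Genes spanning at least 500 kb, a class to which Ptprt, Ptprk and Ptprm belong, had a median log2 difference of 0.05 in cranial mesenchyme-like cells (0.001 over all genes). There 19 were called higher and 3 lower of 205, where 1.31% of all genes were called. In Pcdh9 Galntl6 cells their median was 0.15 (0.001 over all genes), with 60 higher and 4 lower of 208, where 3.91% of all genes were called. In the latter cells all 6 epithelium markers were lower in cKO in both replicates, summing to 6.37 and 3.36 CPM and then 3.96 and 3.03, as were 5 of 8 cardiac muscle markers. In otic vesicle-like cells the long-gene median was −0.05 (−0.18 in replicate 1 and 0.07 in replicate 2). There 9 long genes were called higher and 6 lower of 173, where 0.985% of all genes were called. In the heart field the long-gene median was −0.01. The members are not counted among these genes, and the part of marker levels and gene length in the 3 calls was not tested.

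Several further differences had 1 direction in both replicates and missed the threshold. Ptprt in sensory neuron-like cells was 44.7 and 25.3 CPM in replicate 1 and 51.1 and 37.9 in replicate 2, a log2 difference of −0.61 ± 0.15 (edgeR, adjusted p = 0.433). In branchiomeric muscle-like cells, the precursors of jaw and face muscles, Ptprt was 18.95 and 8.65, then 17.7 and 15.2 (−0.54 ± 0.19, edgeR, adjusted p = 0.498). In pSHF-like cells it was 1.54 and 5.59, then 0.74 and 1.92, from 9, 23, 8 and 20 UMIs (1.61 ± 0.43, edgeR, adjusted p = 0.178). The last value was 0.38 with clusters at resolution 1.2, 1.11 without the highest 10% of doublet scores, and 2.47, 0.61, 1.07 and 2.48 without the 4 libraries in the order above and without the replicate term.

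Among the paralogues, Ptprm in branchiomeric muscle-like cells was 33.7 and 41.1 CPM, then 34.8 and 45.1 (0.37 ± 0.09, edgeR, adjusted p = 0.135). In Vtn Sparcl1 cells it was 36.1 and 44.0, then 31.5 and 39.6 (0.33 ± 0.07, edgeR, adjusted p = 0.0737). In endothelium-like cells, where Ptprm was most abundant, its log2 difference was −0.03 ± 0.06 (edgeR, adjusted p = 0.999). Ptprk there was 116 and 160 CPM, then 225 and 274 (0.37 ± 0.07, edgeR, adjusted p = 0.390). With no filter on low counts, 5 of these differences passed the edgeR test, Ptprt in sensory neuron-like (adjusted p = 0.0139) and branchiomeric muscle-like cells (0.00803), Ptprm in branchiomeric muscle-like (0.0146) and Vtn Sparcl1 cells (0.00293) and Ptprk in endothelium-like cells (0.000571), and each reached an adjusted p of 1.00 by DESeq2 and without the replicate term. Ptprm in Vtn Sparcl1 cells also passed the edgeR test without TMM scaling (adjusted p = 0.0311) and without the highest 10% of doublet scores (0.0134), and Ptprk in endothelium-like cells with at least 4000 genes per cell (0.0285). Without cHet replicate 1, cKO replicate 1, cHet replicate 2 and cKO replicate 2 in turn, and without the replicate term, the log2 difference of Ptprm in Vtn Sparcl1 cells was 0.61, 0.07, 0.06 and 0.53, that of Ptprm in branchiomeric muscle-like cells 0.51, 0.26, 0.22 and 0.45, and that of Ptprk in endothelium-like cells 0.13, 0.52, 0.64 and 0.17. In the same order Ptprt in branchiomeric muscle-like cells gave −0.40, −0.41, −0.83 and −0.90, and with thinned cells it was −0.35. Ptprt in sensory neuron-like cells was −0.30 with thinned cells and −0.38 without the highest 10% of doublet scores.

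**Figure D5:**
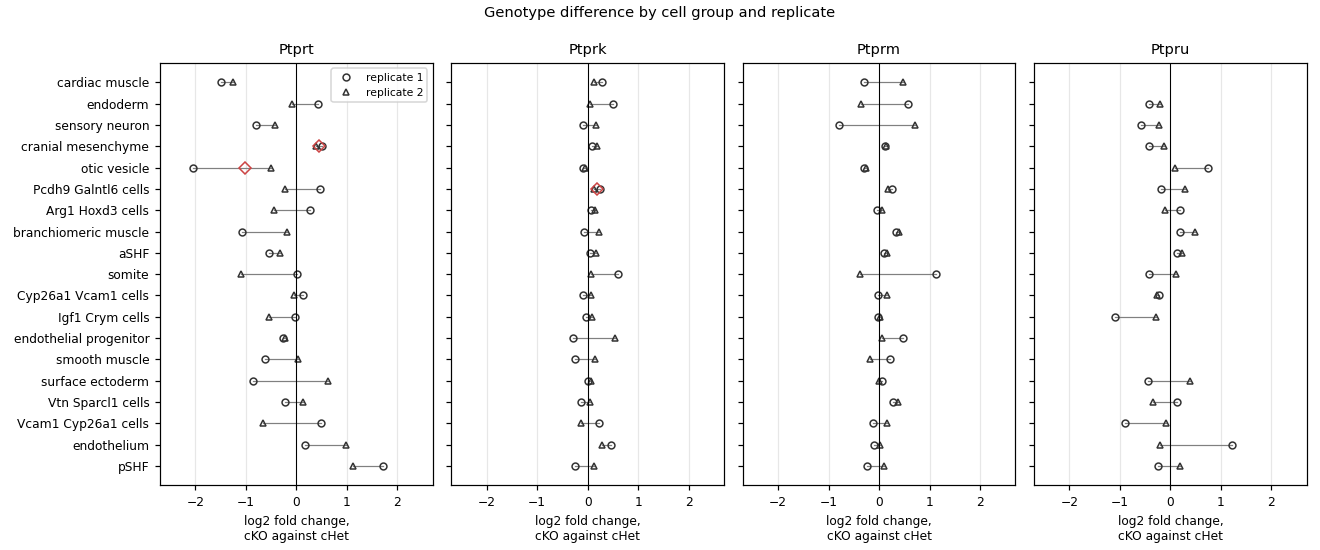
Difference between cKO and cHet (log2 fold change, negative where cKO is lower) of each member in each cell group, with a circle for replicate 1 and a triangle for replicate 2 joined by a line, and a red diamond at the fitted value of the 3 pairs that passed the test. Names leave out "-like", and the diamonds of Ptprt lie at −1.02 in the otic vesicle and 0.44 in cranial mesenchyme, and that of Ptprk at 0.19 in Pcdh9 Galntl6 cells.

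Over the 19 groups the receptor phosphatase list gave 252 pairs of a gene and a group, of which the rule's own 2 were not tested. Of the others 5 were called higher and 2 lower, beside 0.637% called over all genes, and 3 of these 7 were the members' calls above. Ptprd was higher in cKO Igf1 Crym cells (0.34 ± 0.06, edgeR, adjusted p = 0.00129), where 0.827% of genes were called, and in cranial mesenchyme-like cells (0.25 ± 0.06, edgeR, adjusted p = 0.00899). In Pcdh9 Galntl6 cells Ptprg was higher (0.23 ± 0.06, edgeR, adjusted p = 0.00967) and Ptprf lower (−0.23 ± 0.06, edgeR, adjusted p = 0.0137). The calls of Ptprd, Ptprg and Ptprf too were lost without the replicate term, with or without a library left out. With the term in place, Ptprd in cranial mesenchyme-like cells was not called by edgeR without TMM scaling (adjusted p = 0.141), without the highest 10% of doublet scores (0.158) or at resolution 1.2 (0.153), and Ptprd in Igf1 Crym cells not without those scores (0.110) or with at least 4000 genes per cell (0.0760). Ptprg and Ptprf were not called by edgeR without TMM scaling (adjusted p = 0.0556 and 0.0671). Ptprf was lower within both replicates, at 58.2 and 49.6 CPM and at 118 and 99.03, and its difference turned to 0.06 without cKO replicate 1 and to 0.13 without cHet replicate 2 where the replicates, whose levels lie apart, were compared across kits.

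The partners gave 366 tests over these groups, with 2 called higher and 2 lower, again beside 0.637% called over all genes. N-cadherin, Cdh2, was higher in cKO Pcdh9 Galntl6 cells (0.33 ± 0.06, edgeR, adjusted p = 7.45e-06), and Jup, plakoglobin, was lower there (−0.68 ± 0.21, edgeR, adjusted p = 0.0355). The log2 difference of Cdh2 ranged from 0.19 to 0.45 over all alternatives. Cdh11 was lower in otic vesicle-like cells, at 174 and 67.0 CPM in replicate 1 and 137 and 117 in replicate 2 (−0.73 ± 0.15, edgeR, adjusted p = 0.00815). Its difference was −1.36 in replicate 1 and −0.24 in replicate 2, and it was −0.05 with cells thinned to 5000 UMIs and −0.37 without the highest 10% of doublet scores. The Cdh11 call was also lost, at −0.70 to −0.75, without TMM scaling (edgeR adjusted p = 0.167), with all genes that had a count (0.256) and with at least 4000 genes per cell (0.167), and without a library and the replicate term the difference ranged from −1.15 to −0.42. Jup was not called by edgeR without TMM scaling (adjusted p = 0.101), with all genes that had a count (0.0533), with thinned cells (0.544) or without the highest doublet scores (0.0734). Egfr was higher in pSHF-like cells, where 0.347% of genes were called, with 3, 22, 17 and 49 UMIs in cHet and cKO of replicate 1 and of replicate 2 (2.06 ± 0.41, edgeR, adjusted p = 0.0205). The Egfr call was lost at resolution 1.2 (log2 difference 1.31, edgeR adjusted p = 0.533), with thinned cells (1.95, 0.308), without the highest 10% of doublet scores (1.88, 0.130) and with at least 4000 genes per cell (2.04, 0.0931). Over all alternatives the log2 difference of Egfr ranged from 1.31 to 3.06. None of these 4 was called without the replicate term, with or without a library left out.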

How the data were processed

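The UMI counts per gene and cell were deposited by the authors as matrices whose barcodes hold at least 500 UMIs. The submitters' processing notes name Cell Ranger 8.0.1 and mm10, while the matrix headers of replicate 1 name Cell Ranger 7.0.1. Intronic reads may be counted, which touches long genes.

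Cells with at least 3000 genes, at most 10% mitochondrial and 5% hemoglobin UMIs were kept. Scrublet's own threshold called 0.0801% to 2.01% doublets, so the highest scores were called instead, at the kit's expected share (0.8% or 0.4% per 1000 barcodes with at least 3000 genes, 3.90% to 5.33%). Tied scores at that limit were included, which gave 4.03% to 5.78%. Clustering used scanpy 1.11.5 and leidenalg 0.10.2 (1997 variable genes without the members, scaled within each replicate, 30 components, 20 neighbours, resolution 0.8). Before neighbours were sought, the components were aligned between replicates. This used soft clusters with a penalty on uneven replicates and a shift per replicate and soft cluster. A cluster was named when 3 or more markers were found in at least 10% of its cells and at least 2-fold above the rest. A name also needed a marker found this way among the cluster's 20 leading genes. Arg1 Hoxd3 cells had 3 such pSHF markers, but they were not among the leading genes, so the cluster stayed unnamed. The naming rule was chosen once the clusters had been seen, before genotypes were compared in these groups. The lower Ptprt level in cKO heart field cells was already known by then. Of the cells, 691 lay outside the fitted groups, in groups too small to fit or, for 39 of them, in no cluster.

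Counts were summed per library and group and fitted with edgeR 4.0.16 (quasi-likelihood, TMM, filterByExpr, replicate as a block, R 4.3.3), adjusting over all genes tested in a group by Benjamini-Hochberg at 0.05. In the fits, deviations from the genotype means correlated between the same-numbered libraries at 0.61 to 0.82. The pairing comes from the kit used with each replicate. Fits with 1 library left out had no block. DESeq2 1.42.0 was an alternative. The scripts were tested on simulated data.

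The members and lists were chosen with earlier results of these data known. Text names the members in every group, list genes past the threshold or, at most 4 per list, highest in the heart field, and the 5 genes per member with the most similar levels (at least 10 CPM in 1 type). Of these, 1 gene similar to Ptprt and 1 finer cluster of the heart field are not reported here.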

Additional observations from a re-analysis of the deposited data

Results flagged for a closer look

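The genotype difference of Ptprt had opposite directions in otic vesicle-like and cranial mesenchyme-like cells in both replicates. In the former the log2 difference was −2.04 in replicate 1 and −0.50 in replicate 2, and in the latter 0.50 and 0.40. A fit over the sums of both groups, with a term for each library and for the cell group by genotype, gave a difference of −1.42 ± 0.38 on the log2 scale (edgeR quasi-likelihood test, unadjusted p = 0.00804, adjusted p = 1 over 13452 genes). The pair of groups was picked after their values were seen, and the difference failed the correction for all genes.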

How the results depend on the processing

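Under all 13 alternatives run, Ptprt kept its lower cKO level in the heart field, in aSHF-like and in cardiac muscle-like cells. The log2 differences there were −1.49 to −0.47, −0.59 to −0.29 and −2.12 to −0.68. All of these reuse the counts on which Ptprt was chosen, so the kept direction is a description and no test. Each member's level in its highest named type moved by less than the SD over the 4 libraries. The heart field's long-gene median moved by less than the SD of its 2 replicate values. The counts of calls varied with the settings. The 3 calls of members became 0 without the replicate block, 0 with DESeq2, 1 with cells thinned to 5000 UMIs and 8 with all genes that had a count. The 7 calls of the receptor phosphatase list became 0, 0, 2 with clusters at resolution 1.2, and 14 with all genes. The 4 calls of the partners became 0 without the block, 0 with DESeq2, 2 without TMM, 1 with thinned cells, 2 with at least 4000 genes per cell, 2 without the highest 10% of doublet scores and 1 at resolution 1.2. Leaving out 1 library gave 0 to 0 calls in each list, in fits that also lack the block, since 3 libraries leave no residual degrees of freedom for it, and that assume the lone library of a genotype to vary like the others. These therefore do not separate a library's part from the block's. None of these calls was made without the block, which pairs libraries of 1 kit. Of 291 values of 23 named differences, 175 kept side and direction, 91 lost the call and 8 gained one. For Ptprt in the heart field and its 2 parts, 14 values moved by more than the SD of the 2 replicate differences. This limit is narrow where the replicates were alike. The 3 that reversed were Ptpru in the heart field with thinned cells (−0.39), and Ptprf in Pcdh9 Galntl6 cells without cKO replicate 1 (0.06) and without cHet replicate 2 (0.13). Both Ptprf values compare libraries across kits, and within the replicates it was −0.24 and −0.22. The cause was otherwise not tested. At resolution 1.2 the Pcdh9 Galntl6, Vtn Sparcl1 and Igf1 Crym cells have no value, since no cluster was led by the same genes in the same order. Low UMI totals limit Ptpru in most groups and Ptprt in pSHF-like cells and in cardiac muscle-like cells of cKO replicate 1.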
